A study of Mus musculus with 6 samples.

Results

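Muscle cells turn an electrical signal into force through excitation-contraction coupling. A voltage sensor in the T-tubule, an infolding of the surface membrane, opens the ryanodine receptor of the sarcoplasmic reticulum, the internal calcium store. Junctional proteins hold both membranes together, calsequestrin and other luminal proteins bind the stored calcium, and pumps return it after contraction. The transcripts of 10 genes of this machinery were followed here, taken by gene symbol out of 20950 entries of a table of expression values. The list was chosen with earlier results of these data known. They comprised the voltage sensor subunits Cacna1s and Cacng1, and Cacng6, a further member of the gamma subunit family that is grouped with them here. The others were the release channel and junction genes Ryr1, Trdn and Jph2, the luminal proteins Casq2 and Srl, and the calcium pumps Atp2a1 and Atp2a2.

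C2C12, an established mouse myoblast line that forms multinucleated myotubes once serum is lowered, was sampled as 6 mRNA libraries from 5 conditions. Growing cells in 10% FBS (fetal bovine serum), cells differentiating in 2% HS (horse serum), cells in 2% HS + exosome and cells differentiating in 0.2% FBS gave 1 library each, and 0.2% FBS + exosome gave 2, called replicates 1 and 2. Exosomes, small vesicles released by cells, were isolated from FBS and added at the amount that 10% FBS holds, so the 10% FBS medium carried serum exosomes too. Values were deposited as FPKM, a read level divided by transcript length and library depth, and changes below are differences of log2(FPKM + 1), which understate the change of genes near 1 FPKM. The sources do not say whether the replicates of 0.2% FBS + exosome came from separate cultures, so their spread may be technical. Every other condition is a single library, so contrasts among those have no replicate to check them.

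The 4 myoblast markers (Myod1, Myf5, Des and Cdh15) summed to between 806 and 1314 FPKM per library, and the 6 myotube markers (Myog, Tmem8c, Myh3, Acta1, Ckm and Tnnt3) to between 3417 and 10985. With exosomes in 0.2% FBS the myoblast markers went both ways, and their part in the results was not tested. Log2 changes were -0.33 and -0.13 for Myod1, 0.79 and 1.12 for Myf5, -0.90 and -0.94 for Des, and 0.27 and 0.31 for Cdh15. The summed myotube markers stood at 4655 FPKM in 10% FBS, so the library of growing cells already held differentiation transcripts. They were at 10019 in 2% HS, 9703 in 2% HS + exosome, 10985 in 0.2% FBS, and 4833 and 3417 in replicates 1 and 2 of 0.2% FBS + exosome. Of 5 cardiac markers, 3 were under 1 FPKM in all 6 libraries and Myl7 was listed at 0, with sums from 5.88 to 14.2 FPKM. The 3 fibroblast markers (Pdgfra, Dcn and Col1a1) summed to 105 FPKM in 10% FBS, 217 in 2% HS, 240 in 2% HS + exosome, 175 in 0.2% FBS, and 280 and 241 in 0.2% FBS + exosome. Their sum was thus higher with exosomes in 0.2% FBS, where the log2 changes were 0.93 and 0.45 for Dcn, 0.43 and 0.44 for Col1a1, and -0.09 and 0.72 for Pdgfra, and their part in the results was not tested. Depth was estimated from the spacing of low FPKM values at 33600000 to 39400000 reads per library, since the table holds no counts.

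Stretches upstream of 4 of the genes, of voltage sensor, junction, store and pump, are shown because each holds a motif of the search described here and lies outside annotated exons. RefSeq windows (build GRCm38.p6) running from 250 bases before to 50 bases after the annotated transcript start were at hand for 6 of the 10 genes, Cacna1s, Cacng6, Ryr1, Jph2, Casq2 and Atp2a1. Each stretch is written 5′ to 3′ on the strand of the gene and ends before the first annotated exon. Capitals mark 3 motifs searched on both strands, the E-box CAGCTG that myogenic factors bind, the MEF2 motif, and CATTCC, the core bound by TEAD factors. The stretches lie at chr1:136052561-136052749 (plus strand) for Cacna1s, chr2:163397994-163398243 (minus strand) for Jph2, chr3:102086165-102086414 (plus strand) for Casq2 and chr7:126463109-126463323 (minus strand) for Atp2a1.
Cacna1s: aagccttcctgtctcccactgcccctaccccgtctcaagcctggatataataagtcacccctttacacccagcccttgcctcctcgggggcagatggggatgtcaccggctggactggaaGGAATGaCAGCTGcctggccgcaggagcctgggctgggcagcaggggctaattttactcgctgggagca
Jph2: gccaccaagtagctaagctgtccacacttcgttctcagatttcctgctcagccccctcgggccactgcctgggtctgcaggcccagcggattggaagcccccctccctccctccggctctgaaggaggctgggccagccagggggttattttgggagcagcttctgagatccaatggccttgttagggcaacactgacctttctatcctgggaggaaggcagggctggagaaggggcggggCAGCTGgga
Casq2: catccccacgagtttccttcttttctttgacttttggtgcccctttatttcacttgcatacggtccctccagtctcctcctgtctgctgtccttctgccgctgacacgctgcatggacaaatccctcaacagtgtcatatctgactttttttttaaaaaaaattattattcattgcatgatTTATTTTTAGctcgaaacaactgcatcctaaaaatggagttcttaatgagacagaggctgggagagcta
Atp2a1: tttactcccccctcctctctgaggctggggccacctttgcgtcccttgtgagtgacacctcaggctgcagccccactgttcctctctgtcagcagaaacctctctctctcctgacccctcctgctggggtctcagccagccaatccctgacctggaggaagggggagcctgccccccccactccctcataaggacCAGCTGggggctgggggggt

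CAGCTG occurred in the windows of 3 of these 6 genes, Cacna1s, Jph2 and Atp2a1, and in 16.3% of all 32851 mouse windows of the same length. In Cacna1s it spanned positions -123 to -118 from the transcript start and followed GGAATG, the reverse complement of CATTCC, at -130 to -125. CATTCC was also present upstream of Cacng6 at -135 to -130, and 14.7% of all windows held it on either strand. In Jph2 the E-box lay at -9 to -4 from the outer of 2 annotated starts, and in Atp2a1 at -55 to -50. The MEF2 motif was found in the Casq2 window alone among the 6, as TTATTTTTAG at -69 to -60, against 1.86% of all windows. The related E-box CACCTG, read on both strands, was in none of the 6 windows and in 20.2% of all. A match describes letters in a window, not a bound site. Any E-box of the general form CANNTG, which includes CAGCTG and CACCTG, was in 5 of the 6 windows, all but that of Ryr1, and in 72.3% of all.

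The 10 genes shared a split of the libraries into 3 low and 3 high. For each of the 10 genes, the 10% FBS library and both libraries of 0.2% FBS + exosome were the lowest 3 of the 6, and 0.2% FBS, 2% HS and 2% HS + exosome the highest 3, a split that 14.3% of the 10731 genes averaging 1 FPKM or more also showed. Per length, Cacng6 had the lowest FPKM of the 10 in all 6 libraries and Trdn the next. Casq2 had the highest level in 0.2% FBS, 2% HS and 2% HS + exosome, and Cacng1 in 10% FBS and in both libraries of 0.2% FBS + exosome. In bulk RNA, fewer cells expressing a gene and less RNA per cell cannot be told apart.

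**Figure D1:**
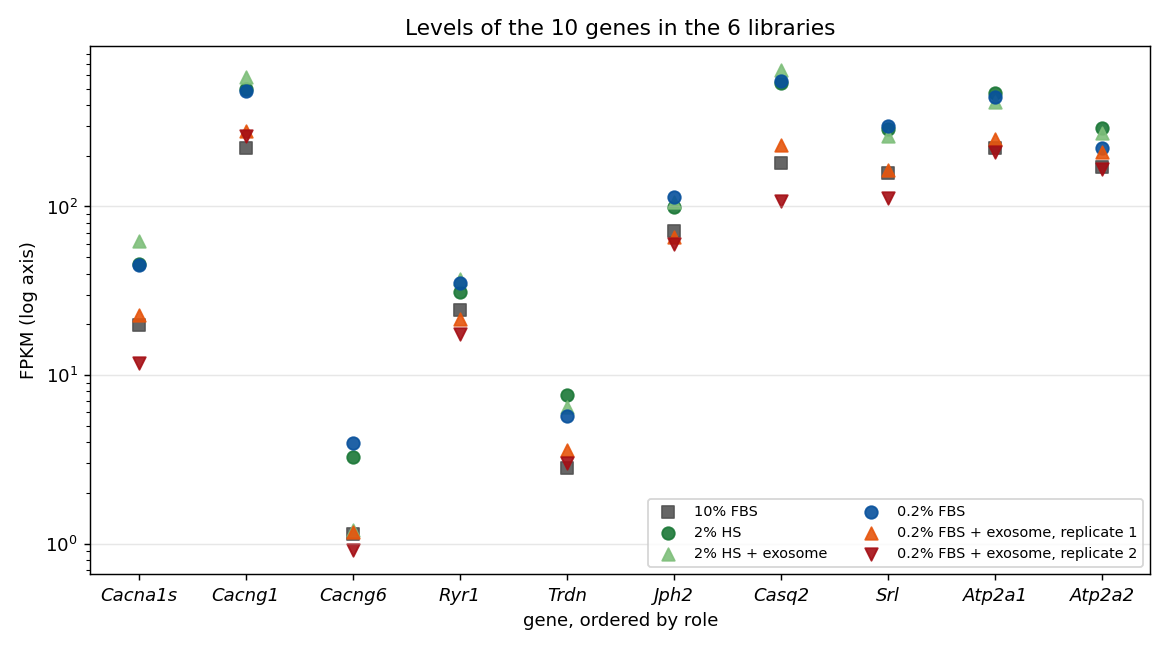
FPKM on a log axis for the 10 genes, ordered by role, with 1 point per library and colour and shape giving the condition. In each gene the points of 10% FBS and of both libraries of 0.2% FBS + exosome lie below the other 3, most narrowly for Cacng6 (1.17 FPKM in replicate 1 against 1.21 in 2% HS + exosome) and Atp2a2 (210 against 223 in 0.2% FBS).

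With exosomes in 0.2% FBS, the voltage sensor gene Cacna1s and the gamma family gene Cacng6 fell, and Cacng1 was lower without passing the test. Cacna1s, the pore-forming subunit that senses voltage, was at 19.9 FPKM in 10% FBS, 45.5 in 2% HS, 62.0 in 2% HS + exosome, 44.9 in 0.2% FBS, and 22.7 and 11.8 in replicates 1 and 2 of 0.2% FBS + exosome. Both exosome libraries of 0.2% FBS lay below their control, and the 2% HS + exosome library was the highest of all 6. Its log2 changes from the 0.2% FBS control were -0.95 and -1.84, and a limma fit with 1 mean per condition gave a mean of -1.39 (SE 0.31, adjusted p = 0.0274). Cacna1s replicate 2 was at 0.521 of replicate 1, so its libraries were less alike than those of 8 other genes here.

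Cacng1, the gamma subunit of the skeletal muscle channel, was at 222 FPKM in 10% FBS, 494 in 2% HS, 586 in 2% HS + exosome, 486 in 0.2% FBS, and 279 and 263 with exosomes in 0.2% FBS. Its exosome libraries in 0.2% FBS were close to each other and stood a little above the 10% FBS library. The log2 changes were -0.80 and -0.88, and the mean of -0.84 (SE 0.28) missed the threshold in limma, with an adjusted p of 0.0801. After the libraries had been scaled to a common 75th percentile, the change was -0.99 and the limma adjusted p 0.0464. Cacng1 held 10.9 FPKM per FPKM of Cacna1s in 2% HS and 10.8 in 0.2% FBS. This ratio was 12.3 in replicate 1 and 22.2 in replicate 2 of 0.2% FBS + exosome, so the pore subunit was the more reduced of the pair in replicate 2.

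Cacng6, a further member of the gamma subunit family, was present at a low level. It was at 1.13 FPKM in 10% FBS, 3.28 in 2% HS, 1.21 in 2% HS + exosome, 3.95 in 0.2% FBS, and 1.17 and 0.914 in 0.2% FBS + exosome. All 3 exosome libraries lay near the 10% FBS level, and both differentiated controls stood apart above them. The estimated reads behind these values were 79, 224, 73, 257, 73 and 55 in the same order, so counting noise weighs more here than in the other genes. In 0.2% FBS the log2 changes were -1.19 and -1.37, with a limma mean of -1.28 (SE 0.19, adjusted p = 0.00934), the lowest adjusted p of the 10. In 2% HS the log2 change was -0.95, and the FPKM with exosomes was 0.369 of the control value.

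Among the genes of the release site, Ryr1, the calcium release channel itself, fell in 0.2% FBS with exosomes, as did Trdn and Jph2. Ryr1 was at 24.2 FPKM in 10% FBS, 31.1 in 2% HS, 37.1 in 2% HS + exosome, 35.3 in 0.2% FBS, and 21.4 and 17.5 in replicates 1 and 2 of 0.2% FBS + exosome. Both exosome libraries of 0.2% FBS were below every other library, the growing cells included. Log2 changes of -0.70 and -0.97 gave a limma mean of -0.84 (SE 0.18, adjusted p = 0.0244).

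Trdn encodes triadin, which anchors calsequestrin to the release channel. Its level was 2.80 FPKM in 10% FBS, 7.61 in 2% HS, 6.49 in 2% HS + exosome, 5.72 in 0.2% FBS, and 3.61 and 3.02 in 0.2% FBS + exosome. The exosome libraries of 0.2% FBS lay between growing cells and the differentiated control. Trdn changed by -0.54 and -0.74 on the log2 scale, with a limma mean of -0.64 (SE 0.18, adjusted p = 0.0491), the closest to the threshold of the 7 genes that passed.

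Jph2, a junctophilin that ties the T-tubule to the sarcoplasmic reticulum, was at 71.7 FPKM in 10% FBS, 98.8 in 2% HS, 106 in 2% HS + exosome, 114 in 0.2% FBS, and 66.3 and 60.1 in 0.2% FBS + exosome. As for Ryr1, both exosome libraries of 0.2% FBS were below the 10% FBS library. The log2 changes were -0.78 and -0.92, and limma gave a mean of -0.85 (SE 0.19, adjusted p = 0.0276).

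Of the store proteins, Casq2, a calsequestrin that binds calcium at high capacity, fell with exosomes in 0.2% FBS. Casq2 was at 180 FPKM in 10% FBS, 543 in 2% HS, 645 in 2% HS + exosome, 556 in 0.2% FBS, and 231 and 108 in replicates 1 and 2 of 0.2% FBS + exosome. Replicate 1 lay above and replicate 2 below growing cells, and both were far under the 3 high libraries. Against the control, the level was 58.5% lower in replicate 1 and 80.6% lower in replicate 2. The log2 changes were -1.27 and -2.35, with a limma mean of -1.81 (SE 0.42, adjusted p = 0.0298). Its order among the 10 turned on the pseudocount, since with a pseudocount of 0.1 the mean was -1.82 for Casq2 and -1.84 for Cacng6.

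Srl, which encodes the luminal calcium-binding glycoprotein sarcalumenin, was at 159 FPKM in 10% FBS, 289 in 2% HS, 263 in 2% HS + exosome, 300.4 in 0.2% FBS, and 164 and 113 in 0.2% FBS + exosome. Replicate 1 was near growing cells and replicate 2 below them. Srl changed by -0.87 and -1.41, a limma mean of -1.14 (SE 0.28, adjusted p = 0.0367).

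Neither calcium pump passed the test at the adjusted threshold. Atp2a1, the pump of fast skeletal fibres, was at 222 FPKM in 10% FBS, 473 in 2% HS, 414 in 2% HS + exosome, 444 in 0.2% FBS, and 250.2 and 211 in 0.2% FBS + exosome. Its exosome libraries in 0.2% FBS lay on either side of the 10% FBS library. Log2 changes of -0.83 and -1.07 gave a mean of -0.95 (SE 0.27), which missed the threshold in limma with an adjusted p of 0.0566 and passed after scaling to a common 75th percentile, with 0.0386.

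Atp2a2, the pump of slow and cardiac muscle that is also used in many other cells, was at 172 FPKM in 10% FBS, 291 in 2% HS, 273 in 2% HS + exosome, 223 in 0.2% FBS, and 210 and 167 in 0.2% FBS + exosome. In 0.2% FBS, replicate 1 was close to the control and replicate 2 was lower, and the highest levels were both in horse serum. The log2 changes were -0.09 and -0.41, with a limma mean of -0.25 (SE 0.25, adjusted p = 0.547) and a 95% interval from -0.83 to 0.33. Atp2a2 was the only one of the 10 genes whose unadjusted p for exosomes in 0.2% FBS was above the 0.05 threshold.

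Counted together, all 10 genes were lower in each exosome library of 0.2% FBS, as were 27.5% of the 10731 genes tested. After scaling to a common 75th percentile all 10 were again lower in each, as were 4375 of the 10731. The median change of the 10 was -0.90, against 0.14 over all genes tested, and scaling to a common 75th percentile moved these medians to -1.05 and 0.007. A log2 change below -1 in each exosome library was reached by Cacng6 and Casq2, 2 of the 10, and by 1.61% of all genes. For the mean of both libraries the same limit was passed by 4, Cacna1s, Cacng6, Casq2 and Srl, against 2.25% of all. In limma, 7 of the 10 were called lower, Cacna1s, Cacng6, Ryr1, Trdn, Jph2, Casq2 and Srl, where 4.32% of all genes were. None was called higher, nor above a change of 1 in each library, as 8.2% and 0.895% of all genes were. Since the 10 were chosen with earlier results of these data known, the shares beside them are description and no test of the list.

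These calls rest on 1 residual degree of freedom, the 2 libraries of 0.2% FBS + exosome, whose spread is assumed for the unreplicated conditions. limma also moved the spread of each gene toward a trend over all genes, so an SE here is not that gene's own replicate spread. The SD of the 2 replicates was 0.77 for Casq2 (SE 0.42), 0.63 for Cacna1s (SE 0.31) and 0.058 for Cacng1 (SE 0.28). Without the filter on low values limma called 0 of 16450 genes (3121 at an unadjusted p under 0.05) and 0 of the 10 (5 unadjusted), with adjusted p from 0.243 to 0.605. With 1 shared exosome effect for both media, fitted to the 5 libraries of differentiating cells, limma also called 0 genes (709 unadjusted) and 0 of the 10 (4 unadjusted).

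All 10 genes were lower in replicate 2 than in replicate 1, as were 36.4% of all genes tested, with levels at 0.469 of replicate 1 for Casq2, 0.521 for Cacna1s and 0.687 for Srl, and at 0.782 to 0.944 for the other 7. The summed myotube markers moved with this difference, at 4833 FPKM in replicate 1 and 3417 in replicate 2. Myog alone among them went the other way, at 350 and 401 FPKM. The part of these markers in the difference was not tested. With replicate 2 alone, 5 genes passed the limit of -1 (Cacna1s, Cacng6, Casq2, Srl and Atp2a1), against 2.84% of all genes, and with replicate 1 alone 2 did (Cacng6 and Casq2), against 1.71%.

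**Figure D2:**
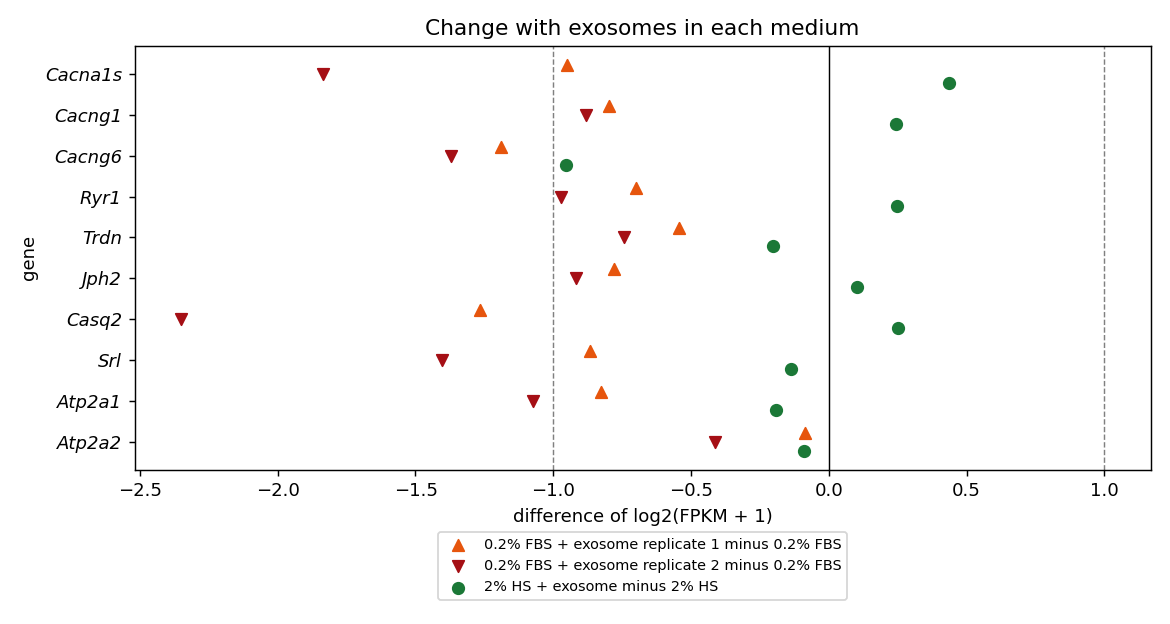
Difference of log2(FPKM + 1) between exosome-treated and control cells for each gene, with triangles for replicates 1 (up) and 2 (down) of 0.2% FBS + exosome and circles for the single 2% HS + exosome library; dashed lines mark -1 and 1. All triangles lie below 0, and the circles lie on both sides of 0, from -0.95 (Cacng6) to 0.44 (Cacna1s).

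In 2% HS the same addition of exosomes left the 10 genes on both sides of 0. Of them, 5 were lower and 5 were higher than in the control library, and the median log2 change was 0.005, against -0.04 over all genes. The 5 higher genes were Cacna1s (0.44), Cacng1 (0.25), Casq2 (0.25), Ryr1 (0.25) and Jph2 (0.10). Those lower were Cacng6 (-0.95), Trdn (-0.20), Atp2a1 (-0.19), Srl (-0.14) and Atp2a2 (-0.09). None of the 10 passed a change of 1 in either direction, as 0.652% of all genes did, although Cacng6 passed it once a pseudocount of 0.1 was used or values under 1 FPKM were raised to 1. This comparison is 1 library against 1.

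Whether exosomes acted differently by medium was tested as a contrast of the same limma fit, and 0 of the 10 genes passed the adjustment, against 1.16% of all genes. At an unadjusted p under 0.05, 6 did (Cacna1s, Cacng1, Ryr1, Jph2, Casq2 and Srl), as did 19.5% of all genes. Without the filter on low values 2 did, Cacng1 and Jph2, near the share of 13.8% over all genes. Ryr1 had the lowest adjusted p of the 10, with an effect in 0.2% FBS minus 2% HS of -1.08 (SE 0.27, limma adjusted p = 0.0924). For Casq2 the difference was -2.06 (SE 0.64, limma adjusted p = 0.147), and for Cacng6, lower in both media, it was -0.33 (SE 0.29, limma adjusted p = 0.568).

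All 10 genes were higher in both media of lowered serum than in 10% FBS, as were 31.4% of all genes tested. The comparison of differentiating with growing cells asks how the machinery is built up as myotubes form. The median log2 difference was 0.96 in 0.2% FBS and 1.05 in 2% HS. The medians over all genes were -0.09 and -0.08. Both comparisons share the 10% FBS library.

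Casq2 differed by 1.62 in 0.2% FBS and 1.59 in 2% HS, a level 3.09 and 3.02 times that of growing cells. Cacng6 was at 3.49 and 2.89 times the 10% FBS level, Cacna1s at 2.26 and 2.29 times, and Cacng1 at 2.19 and 2.23 times. A log2 difference above 1 was passed in 0.2% FBS by 4 genes (Cacna1s, Cacng1, Cacng6 and Casq2), where 1.79% of all genes passed it. In 2% HS it was passed by 6, the same 4 with Trdn (1.18) and Atp2a1 (1.09), and again by 1.79% of all. The contrast of 4 with 6 turned on the pseudocount, since in 0.2% FBS the same 6 genes passed with a pseudocount of 0.1 and with values under 1 FPKM raised to 1, and 5 passed after scaling to a common 75th percentile. The share of all genes above 1 under these alternatives is not given here.

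The differences were 0.53 in 0.2% FBS and 0.35 in 2% HS for Ryr1, 0.67 and 0.46 for Jph2, and 0.38 in 0.2% FBS for Atp2a2. Atp2a2 was further from growing cells in 2% HS, at 0.76. In the limma contrast of both differentiating controls against 10% FBS, 2 of the 10 passed, Cacng6 (mean 1.11, SE 0.19, adjusted p = 0.0407) and Trdn (mean 1.00, SE 0.18, adjusted p = 0.0417), where 1.42% of all genes passed as higher. At an unadjusted p under 0.05, 9 of the 10 did, all but Atp2a2, and so did 21.9% of all genes. Without the filter on low values 0 of the 10 and 0 of all genes passed, with 5 of the 10 and 14.4% of all genes at an unadjusted p under 0.05.

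**Figure D3:**
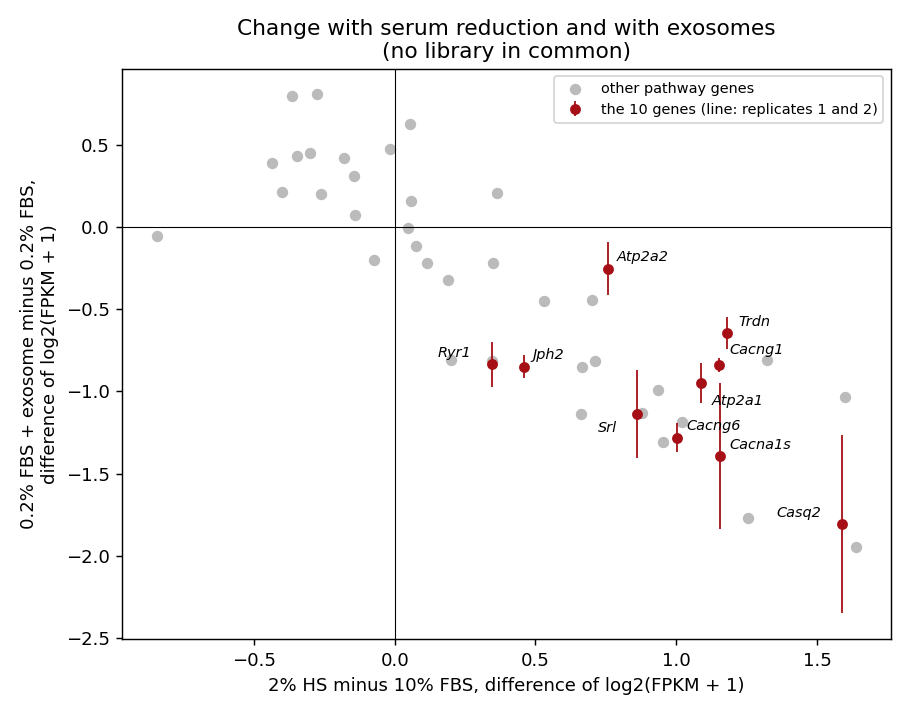
Change with exosomes in 0.2% FBS (vertical axis, mean of both libraries) against the difference between 2% HS and 10% FBS (horizontal axis), both as differences of log2(FPKM + 1), which share no library. Dark points are the 10 genes with a line joining replicates 1 and 2, and grey points are the other genes of the pathway. The 10 lie at the lower right, from 0.35 (Ryr1) to 1.59 (Casq2) across and from -0.25 (Atp2a2) to -1.81 (Casq2) down.

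Exosome-treated cells in 0.2% FBS were then set against growing cells. The median log2 difference of the 10 genes was -0.12, with a range from -0.31 (Ryr1) to 0.29 (Cacng1). It was 0.18 for replicate 1 alone and -0.20 for replicate 2 alone, so its sign depended on the library. In limma 0 of the 10 genes differed, against 0.0652% of all genes, and 0 had an unadjusted p under 0.05, against 11.5%. A missed threshold does not show equal levels, and the 95% interval for Casq2 ran from -1.15 to 0.77 and for Ryr1 from -0.72 to 0.10.

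Beside the 10 were read 5 genes of muscle differentiation, Myog, Tmem8c (Mymk, the fusion protein myomaker), Myh3, Ckm and Acta1. Their median log2 change with exosomes in 0.2% FBS was -1.37, with a range from -1.58 to -0.82, and in 2% HS it was -0.008. Against 10% FBS their median was 1.12 in 0.2% FBS and 1.15 in 2% HS. Relative to the reference median of the same library, Casq2 was lower by a further 0.18 in replicate 1 and 0.69 in replicate 2 on the log2 scale. The fall of Atp2a2 was smaller than the reference median by 1.00 and 1.25, and that of Trdn by 0.54 and 0.92. The part that the extent of differentiation plays in the changes of the 10 genes was not tested.

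Several of the 10 have an isoform made by another gene, and the balance between them was compared as a share of summed FPKM. Atp2a1 made up 66.6% of the sum of Atp2a1 and Atp2a2 in 0.2% FBS, 61.9% in 2% HS and 60.3% in 2% HS + exosome. It was at 56.3% in 10% FBS, and at 54.4% and 55.7% in replicates 1 and 2 of 0.2% FBS + exosome, the lowest 2 of the 6.

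Ryr1 shared the ryanodine receptor sum with Ryr3, a form known from developing muscle. Ryr1 made up 83.9% in 0.2% FBS, 83.6% in 2% HS and 84.9% in 2% HS + exosome, but 74.3% in 10% FBS and 72.2% and 69.1% in 0.2% FBS + exosome. Ryr3 itself was at 6.78 FPKM in 0.2% FBS and 8.24 and 7.83 with exosomes (limma mean 0.22, SE 0.16, adjusted p = 0.400). Ryr2, the cardiac channel, did not exceed 0.00326 FPKM in any library.

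Casq2, rather than the fast-fibre form Casq1, supplied most calsequestrin transcripts in all 6 libraries, with shares of 89.1% in 10% FBS, 93.7% in 2% HS, 97.1% in 2% HS + exosome, 94.3% in 0.2% FBS, and 92.0% and 86.3% in 0.2% FBS + exosome. Casq1 was at 36.6 FPKM in 2% HS and 19.5 in 2% HS + exosome, a log2 change of -0.88, while Casq2 was the higher with exosomes there. In 0.2% FBS Casq1 was at 33.4 FPKM without exosomes and at 20.1 and 17.1 with them (limma mean -0.82, SE 0.17, adjusted p = 0.0234). For the junctophilins in 0.2% FBS, Jph2 made up 82.9% of Jph1 and Jph2 without exosomes and 86.5% and 85.7% with them. Jph1 was at 23.5 FPKM in the control and 10.3 and 10.0 with exosomes (limma mean -1.14, SE 0.16, adjusted p = 0.00803). Cacna1c, the cardiac pore subunit, did not exceed 0.00772 FPKM.

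**Figure D4:**
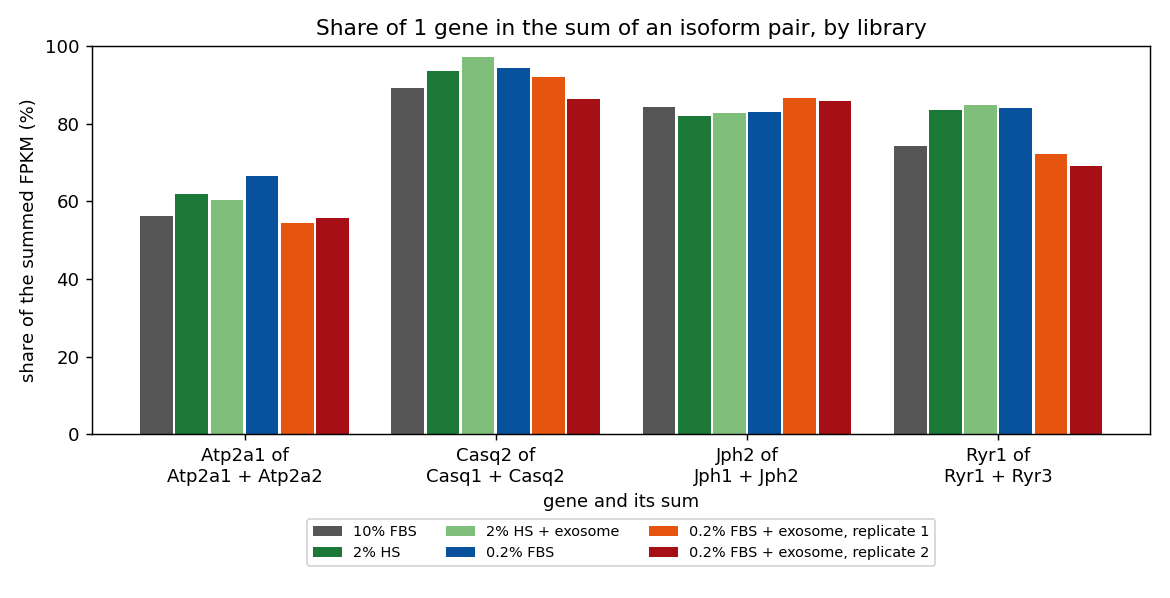
Share of the first-named gene in the summed FPKM of an isoform pair (percent, axis from 0 to 100), with 1 bar per library. The bars of Atp2a1 and Ryr1 are lowest in 10% FBS and in both libraries of 0.2% FBS + exosome, where Ryr1 made up 69.1% to 74.3%, and the bars of Jph2 are highest there.

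A wider list of 46 genes of calcium handling and membrane excitability was counted in full. The table held 44 of them, and 36 averaged 1 FPKM or more. With exosomes in 0.2% FBS limma called 12 lower and 2 higher, where 4.32% of all genes were called lower and 8.2% higher. The 12 include Pvalb, named here after its values were seen, which passed the filter on low values only through 2% HS. Pvalb was at 3.56 FPKM in 2% HS and at most 1.66 in the other libraries, so its call is counted but not read further. Without the filter on low values 0 of the 36 were called, and in the filtered fit 20 had an unadjusted p under 0.05, as did 31.5% of all genes. The median change of the 36 was -0.21, against 0.14 over all genes, and scaling to a common 75th percentile moved it to -0.35, against 0.007.

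A log2 change below -1 in each exosome library of 0.2% FBS was reached by 5 of the 36 and a change above 1 by 0, against 1.61% and 0.895% of all genes. After the same scaling 7 were below -1 in each library, against 2.12% of all genes. Among the 5 were Cav3, the muscle caveolin (-1.77), Scn4a, the sodium channel of skeletal muscle (-1.31), Hrc, a histidine-rich calcium-binding protein of the store (-1.19), and Jph1 (-1.14). Scn4a was at 9.15 FPKM in the 0.2% FBS control and fell to 3.72 and 2.55 with exosomes (limma mean -1.31, SE 0.20, adjusted p = 0.0105).

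By role, limma called 5 of the 9 tested genes of the triad junction and T-tubule lower. Of the 4 tested partners of the voltage sensor it called 2 lower and 1 higher, and of the 4 other store proteins 2 lower and 1 higher. The remaining 3 lower calls, Pvalb among them, lay in other roles, and over all genes the shares were 4.32% lower and 8.2% higher. The 2 higher genes, chosen here after their values were seen, were Cacnb3, a calcium channel beta subunit found mainly outside muscle (0.81, SE 0.16, adjusted p = 0.0217), and Sepn1, a selenoprotein of the endoplasmic reticulum (0.80, SE 0.17, adjusted p = 0.0230). Cacnb1, the beta subunit of the skeletal muscle channel and also chosen after its values were seen, fell by 1.13 (SE 0.19, adjusted p = 0.0141).

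Release channels other than Ryr1 and their regulators gave no call. Of 8 tested, limma called 0 in either direction (2 at an unadjusted p under 0.05, against 31.5% of all genes), with adjusted p from 0.107 to 0.842, and 7 were above 0 in each exosome library, as were 55.2% of all genes. Their median change was 0.37, or 0.23 after scaling to a common 75th percentile.

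In 2% HS, 1 gene of the list passed a change of 1, as did 0.652% of all genes. Atp2a3, a calcium pump of the endoplasmic reticulum in non-muscle cells, was at 0.722 FPKM in 2% HS and 4.48 in 2% HS + exosome, and did not exceed 0.925 FPKM in the other 4 libraries. Its change with exosomes was 1.67 in 2% HS and -0.32 in 0.2% FBS. It passed the filter on low values through the 2% HS + exosome library alone, since the other 5 libraries averaged 0.649 FPKM, so these values are given with no test. Sln, a small inhibitor of the muscle pump, was listed at 0 in all 6 libraries.

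**Figure D5:**
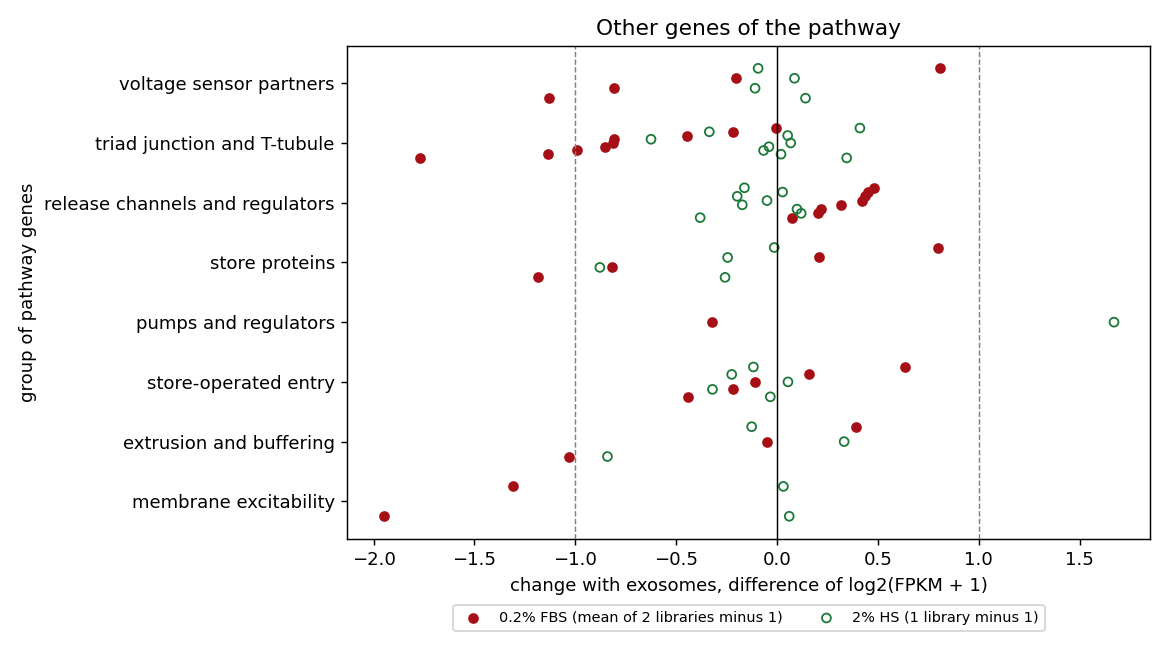
Change with exosomes for the 36 tested genes of the wider list, grouped by role, as a difference of log2(FPKM + 1), with filled points for 0.2% FBS and open points for 2% HS. Filled points of the release channels and regulators lie between 0.08 and 0.48, and the open point at 1.67 is Atp2a3.

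Likeness of pattern was described by Pearson r of log2(FPKM + 1) over the 6 libraries, 2 of them replicates, with no test. Among the 10 genes the median r with the other 9 ran from 0.679 for Cacng6, which was low in 2% HS + exosome, to 0.955 for Casq2. Of 5842 genes averaging 10 FPKM or more outside both lists, those most like Ryr1 were Zfp568, Dclk1, Runx1, Tead4 and Prepl, with r from 0.997 for Zfp568 to 0.993 for Prepl. Those most like Atp2a2 were Tmed7, Galnt1, C1galt1c1, Reep5 and Tmem189, with r from 0.992 to 0.978.

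Positions below are from GENCODE vM21 on mm10. Cacna1s spans chr1:136052750-136119822 on the plus strand, Cacng1 chr11:107703218-107716522 on the minus strand and Cacng6 chr7:3424195-3435667 on the plus strand. Ryr1 spans chr7:29003344-29125179 on the minus strand, with 106 exons in its longest coding transcript, Trdn chr10:33080554-33476709 on the plus strand and Jph2 chr2:163336242-163397993 on the minus strand. Casq2 lies at chr3:102086415-102146514 on the plus strand and Srl at chr16:4480216-4541816 on the minus strand. The pumps lie at chr7:126445858-126463108 (Atp2a1) and chr5:122453513-122502225 (Atp2a2), both on the minus strand. Exons of Atp2a1 overlap those of Rabep2 on the opposite strand over 763 bases. Rabep2 was at 5.52 to 10.7 FPKM, against at least 211 for Atp2a1. Antisense or unclassified models also overlap Cacna1s over 1309 bases, Ryr1 over 914 and Atp2a2 over 83, and the strand setting of the quantification is not given in the sources used here. Stretches of 75 bases, the read length, were compared in transcript orientation only, from the longest coding transcript of each gene. For 9 of the 10 none was shared with another annotated gene, and for Atp2a2 136 of 4412 stretches were shared with Gm30970. The overlaps on the opposite strand lay outside this search.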

How the data were processed

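The authors made 75 bp single-end reads from stranded mRNA libraries, trimmed them with cutadapt 1.9.1, mapped them to mm10 with TopHat2 2.1.0 (versions per the submitters' processing notes) and computed FPKM with Cufflinks. The FPKM values were deposited as 1 table with a column per library, which divides by transcript length and library depth and holds no counts. The sums per library ran from 461439 to 515215 FPKM, 4500 of 20950 entries were at 0 in all libraries, and 5 names were repeated.

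Values were analysed as log2(FPKM + 1), and the change limit of 1 was taken from the study, whose methods set it on FPKM values. On log2(FPKM + 1) it is stricter for low genes. limma 3.58.1 (R 4.3.3) was fitted with a mean-variance trend and 1 mean per condition to the 10731 genes averaging 1 FPKM or more, with Benjamini-Hochberg adjustment over all of them. It was also run on simulated data, and no outcome of that run is given here. The groups came from the treatment labels, and no sample was left out. Alternatives were a pseudocount of 0.1, values under 1 FPKM raised to 1, scaling to a common 75th percentile of expressed genes, no filter, a common exosome effect, and each replicate left out.

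The 10 genes, the wider list of 46, the cell type markers and the 5 reference genes were chosen with earlier results of these data known. From the wider list were named genes past the limit in each exosome library of 0.2% FBS, isoform partners of the 10, and those at 0 in all libraries. Any further name from it is marked as a later choice. A gene that the rule names is not reported here. Mrln and Strit1 were not matched and were not analysed here, and Selenon is listed as Sepn1. Depth was estimated as the depth at which low values of genes with 1 transcript lie nearest to whole reads. At that depth 71.9% to 74.0% of them lay within 0.1 of a read, assuming fragments of 200 bases, and without counts no interval was given for a single value. Sequences are from RefSeq (GRCm38.p6). Python 3.11.15 and pandas 2.3.3 were used for the remaining steps.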

Additional observations from a re-analysis of the deposited data

Results flagged for a closer look

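In all, 5 genes went in opposite directions in the 2 media, lower in each exosome library of 0.2% FBS and higher in the single exosome library of 2% HS. Their log2 changes in 2% HS ran from 0.10 for Jph2 to 0.44 for Cacna1s, 1 library against 1, so no replicate checks that direction. The 0.2% FBS effect less the 2% HS effect was -1.83 for Cacna1s (limma adjusted p = 0.0963), -1.08 for Cacng1 (0.217), -1.08 for Ryr1 (0.0924), -0.95 for Jph2 (0.139) and -2.06 for Casq2 (0.147). Of all 10731 genes tested, 12% showed these directions. The 5 are listed for that pattern, and none of the 5 differences passed the adjustment over all genes, and each rests on 1 library of 2% HS + exosome and 1 control library per medium.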

How the results depend on the processing

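All 10 genes were below the control in each exosome library of 0.2% FBS with a pseudocount of 0.1, with values below 1 FPKM raised to 1 and with scaling to a common 75th percentile. After that scaling, 4375 of all 10731 genes tested were below it in each library too. The count past a change of 1 in each exosome library there was 2, and ranged from 2 to 5 with 1 replicate left out. After scaling to a common 75th percentile it was 3 (Cacna1s, Cacng6 and Casq2), against 2.12% of all genes. The count in 2% HS went from 0 to 1 with a pseudocount of 0.1 and to 1 with values below 1 FPKM raised to 1. The median difference from 10% FBS ranged from -0.20 to 0.18 with 1 replicate left out. The limma count of 7 for exosomes in 0.2% FBS became 0 without the filter on low values and 0 with 1 exosome effect common to both media, and that of 2 for serum reduction became 0 without the filter. The common exosome effect is a different contrast from the effect in 0.2% FBS alone, so the 2 counts do not answer the same question. The cause of the losses without the filter was not tested. Scaling to a common 75th percentile gave 9, adding Cacng1 and Atp2a1, with 6.37% of all genes called lower. With 1 replicate left out limma has no residual degrees of freedom, so only changes were given. Depth is an estimate, and Cacng6, at 55 to 257 estimated reads, is the least precise of the 10. No paired analysis within a medium was possible because the groups compared share fewer than 2 replicate numbers. Sample titles number both 2% HS libraries 1, 0.2% FBS and replicate 1 of 0.2% FBS + exosome 2, and replicate 2 3. These title numbers were not used to pair samples.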
